A study of Mus musculus with 25 samples.

Results

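The genes examined here encode the autophagy machinery that acts downstream of the energy-sensing kinase AMPK. They are 41 listed mouse genes, looked up by symbol among the 55487 genes of the deposited count table, and the list was drawn up by function, with earlier results of these data known. All 41 were found, and all 41 were among the 19155 genes with enough counts to be tested. The samples are 25 RNA libraries of Achilles tendon from mice 3 months old, in a design that crosses genotype with activity. The 4 groups were AMPKcKO wheel runners (written cKO runners, 6 libraries), AMPKcKO mice with cage activity (cKO cage, 6), wild-type wheel runners (WT runners, 6) and wild-type mice with cage activity (WT cage, 7). WT cage held 3 males and 4 females, and each other group held 3 of each sex. The series title names AMPKα1, the catalytic subunit encoded by Prkaa1, as the lost protein. The promoter that drives Cre, the exons it removes and the strain are not given in the sources used here. The labels also do not tie libraries to animals, so p-values measure the spread between these libraries.

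Autophagy encloses part of the cytoplasm in a new double membrane and delivers it to the lysosome. AMPK starts it when energy is short by phosphorylating the kinase ULK1 and members of the PI3-kinase complex, and it acts at longer range through the transcription factors TFEB and TFE3. ULK1 works in a complex with ATG13, ATG101 and the scaffold FIP200 (gene Rb1cc1). The lipid kinase complex marks the membrane, ATG9A vesicles and the lipid transfer proteins ATG2A and ATG2B enlarge it, and a conjugation system joins ATG8 proteins such as LC3B to it. Cargo receptors then bind the load to ATG8 proteins. Many of these steps are set by phosphorylation and lipidation of proteins, which a count of RNA does not measure.

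TFEB and TFE3 bind the E-box letters CACGTG, and a longer palindrome around these letters is known as the CLEAR motif of lysosomal and autophagy genes. RefSeq windows from 250 bases before to 50 bases after the start site (GRCm38.p6) matched 34 of the 41 genes. CACGTG, searched on both strands, was present in 6 of these 34 (17.6%) and in 8.09% of the 27025 genes with a window. TCACGTG, which contains CACGTG and lies within the CLEAR motif, was present in 4 of 34 (11.8%), against 4.29% of all. The whole CLEAR motif was in none of the 34 and in 0.37% of all. The 4 windows with TCACGTG are shown around the matches, because they are the autophagy promoters that hold the most letters of the element, with TCACGTG or its reverse complement CACGTGA in capitals and overlapping copies run together. A match describes letters and does not show that a factor binds there. The strand printed is that of the gene.
Lamp1, chr8:13159088-13159162, plus strand: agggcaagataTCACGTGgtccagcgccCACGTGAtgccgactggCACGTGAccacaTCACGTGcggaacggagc
Atg3, chr16:45158723-45158775, plus strand: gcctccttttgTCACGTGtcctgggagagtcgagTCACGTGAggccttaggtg
Atg7, chr6:114670952-114670980, plus strand: catattggtggTCACGTGtgcagtaagtg
Atg14, chr14:47568418-47568446, minus strand: aaacaaaatccCACGTGActggccctgag
Lamp1 held 4 copies, the first and last starting 62 and 16 bases before the start site, and Atg3 held 2. The start site of the Atg3 window did not match an annotated transcript start, while those of Lamp1, Atg7 and Atg14 did. In edgeR on all 25 libraries none of these 4 genes was called for genotype, running or sex, and Lamp1 had a called muscle coefficient, given with the others. With running as the mean of both genotypes the log2 fold change was -0.10 ± 0.08 for Atg3 and 0.02 ± 0.09 for Atg14, and the values of Atg7 and Lamp1 follow with their roles.

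Libraries held 13193228 to 45724243 counts (median 24538109), and the fewest counts of any autophagy gene in a library were 51. Tendon markers were counted in every library, with Tnmd, a membrane protein of tendon cells, at 15.3 to 83.6 CPM (counts scaled to library size by TMM). Skeletal muscle fibre genes also took 4.19% to 21.2% of the counts, with medians of 9.54% in cKO runners, 15.6% in cKO cage, 16.1% in WT runners and 15.3% in WT cage libraries. Prkaa1 stood at 13.9 to 22.6 CPM in cKO and 13.4 to 31.2 CPM in WT libraries, a log2 fold change of -0.36 ± 0.12 (SE) that was not called (adjusted p = 0.981), and a whole-gene count may include transcripts that lack the deleted exons. Cre was at 7 to 42 counts in 11 of 12 cKO libraries and at 0 in all 13 WT libraries and in the library labelled cKO cage female 3, where 0 allows up to 3 counts. The reporter eGFP was carried by 6 of 6 cKO runners, 2 of 6 cKO cage, 1 of 6 WT runners and 0 of 7 WT cage libraries, and the WT carrier is the library labelled WT running male 2. WT running female 2 and WT running male 3 stood apart on the second principal component (-112 and -83.1, the others between -7.63 and 26.8), and results that could rest on these libraries are given without them. In whole tissue, fewer cells of a type and less RNA per cell cannot be told apart.

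By level per length, the 4 genes with the highest medians were 3 cargo receptors and Lamp1. The receptor of damaged mitochondria Bnip3 had a median of 329.8 FPKM over the 25 libraries, and it stood above the next gene, the ubiquitin-binding receptor Sqstm1 (132.75 FPKM), in 25 of 25, although 21.9% of the 50-base stretches of its longest transcript also occur in other genes, chiefly the processed pseudogene Gm16439. Sqstm1 stood above the lysosomal membrane protein gene Lamp1 (117.62 FPKM) in 22 of 25 libraries, and Lamp1 above Bnip3l (83.32 FPKM), a relative of Bnip3, in 23 of 25. Neighbours further down were less separated. Map1lc3a (58.95 FPKM) stood above Map1lc3b (53.12 FPKM) in 15 of 25 libraries, so these LC3 genes do not differ beyond their spread. Among the initiation genes, the medians were 42.08 FPKM for Becn1, the regulatory subunit of the lipid kinase complex, 29.88 FPKM for Rb1cc1, 16.07 FPKM for Ulk2 and 10.36 FPKM for Ulk1. The lowest medians were those of the lipid transfer gene Atg2a (4.02 FPKM), the lipid kinase subunit Atg14 (3.57 FPKM) and the conjugating enzyme Atg10 (3.38 FPKM). Within the ATG8 family, Map1lc3a took 27.4%, Map1lc3b 26.6%, Gabarap 24.3%, Gabarapl1 12.9% and Gabarapl2 9.45% of the summed FPKM (medians over libraries).

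**Figure D1:**
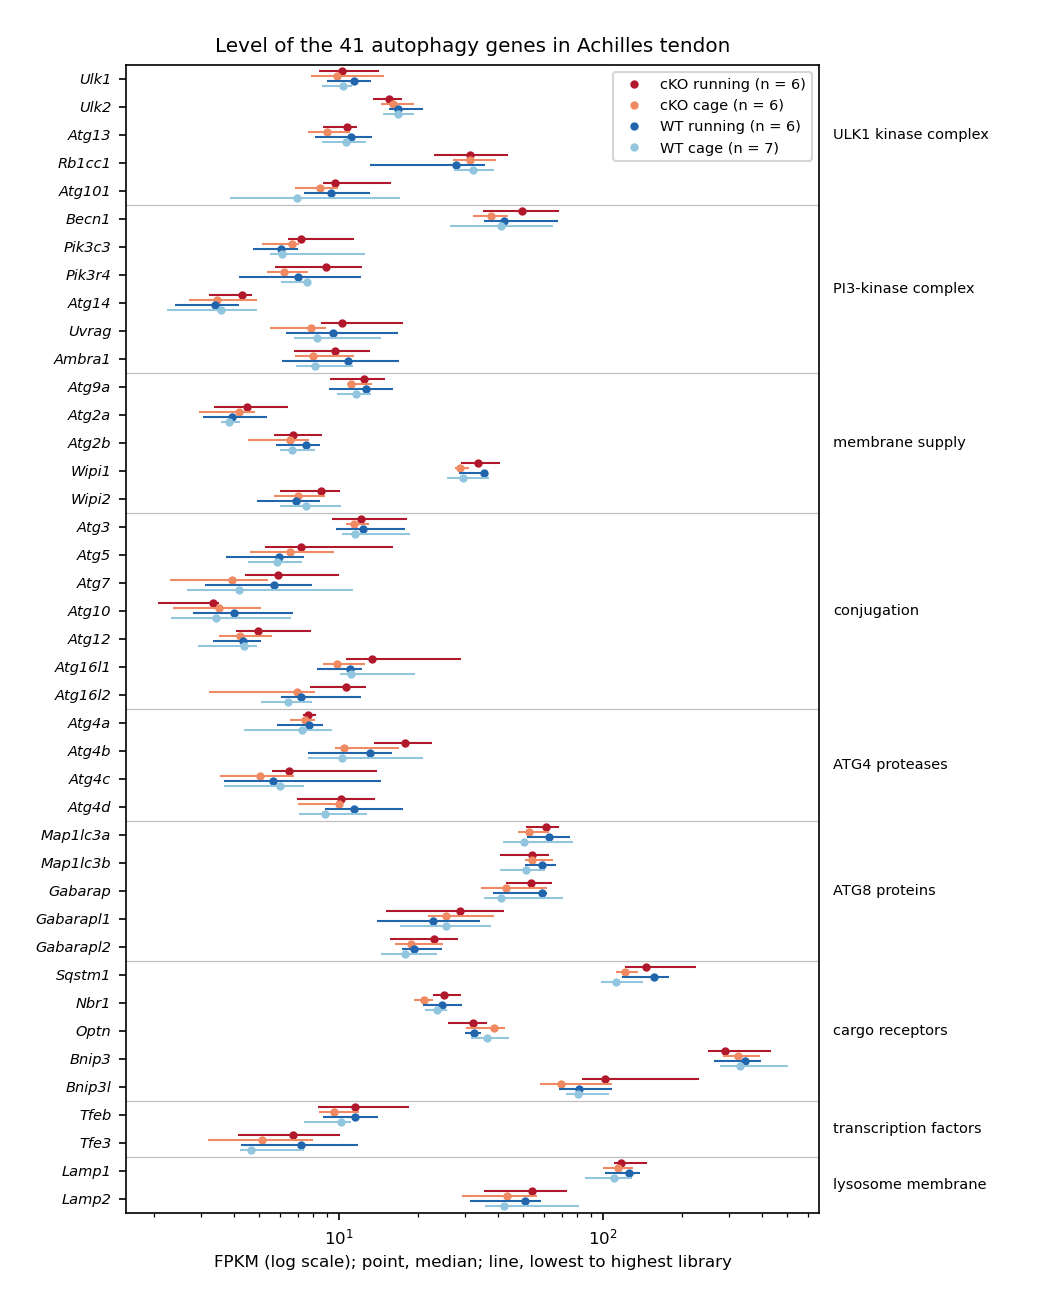
Level of each of the 41 autophagy genes in FPKM (log axis) in cKO runners, cKO cage, WT runners and WT cage libraries, with the point at the group's median and the line from its lowest to its highest library. Within a gene the ranges of the groups lie largely on top of each other, while genes span from 3.38 FPKM (Atg10) to 329.8 FPKM (Bnip3) by their medians.

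The autophagy genes also varied little between libraries of the same group. The SD within a group was 0.14 to 0.35 on the log2 CPM scale over the 41 genes, with a median of 0.20. The median over all tested genes was 0.44. Genes of like level were not compared, so the low spread is not shown to be particular to these genes. Becn1 varied least and Bnip3 most. Summed over the 41 genes, the libraries ran from 1636 to 2547 CPM.

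Among the comparisons of genotype, running and sex, wheel running gave the only call among the 41 genes, and it was a lower level of Rb1cc1. As the mean of both genotypes, 1 of 41 was called lower and 0 higher, against 1.43% of all tested genes called in either direction, 0.814% lower and 0.611% higher. In cKO alone edgeR called 0 of 41, against 0.0418% of all genes (0.0313% higher, 0.0104% lower), and 8 members had an unadjusted p under 0.05, beside 13.6% of all genes. In WT alone it called 0 of 41, against 0.131% of all genes (0.104% higher, 0.0261% lower), with 5 members under that p, beside 9.74%. In cKO, DESeq2 called 1 member (Rb1cc1) among 215 genes called in all, and limma-voom called 2 (Rb1cc1 and Optn) among 384, where edgeR called 8. In WT both called 0 members. The median log2 fold change of the 41 genes was -0.01 for the mean, -0.02 in cKO and 0.03 in WT, and the medians of all genes were 0.01, 0.03 and 0.00. The fold changes of the single members lay between -0.41 for Rb1cc1 and 0.32 for the conjugation gene Atg7.

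In the ULK1 kinase complex, Rb1cc1 (ENSMUSG00000025907, chromosome 1, 6206197 to 6276648, plus strand, GRCm38) encodes FIP200, the scaffold that holds the kinase and its partners. Its lowest, median and highest levels were 63.6, 70.0 and 84.1 CPM in cKO runners, against 77.5, 97.8 and 130.5 CPM in cKO cage libraries. In WT runners they were 54.5, 66.7 and 105.6 CPM, against 73.2, 87.9 and 108.9 CPM in WT cage libraries. Of the 12 runners, 11 lay below the cage median and 7 below the lowest of the 13 cage libraries, and the groups overlapped, with the other 5 runners inside the cage range and WT running male 1 the highest of them. The log2 fold change of Rb1cc1 was -0.41 ± 0.09 (SE, 12 runners against 13 cage libraries), a fold of 0.753, and edgeR called it lower (adjusted p = 0.0221). The fold change was -0.46 ± 0.13 in cKO (adjusted p = 0.163) and -0.36 ± 0.13 in WT (adjusted p = 0.316), and neither was called alone.

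Several other measures differed between runners and cage libraries in median or in direction, and their ranges overlapped. Macrophage markers took 0.0217% to 0.120% of the counts in runners (median 0.0690%) and 0.0186% to 0.0932% in cage libraries (median 0.0347%), with 17 of 18 of these genes positive. Ribosomal RNA of mitochondria took a median of 19.4% in runners and 25.2% in cage libraries. Schwann cell markers took 0.00600% to 0.186% in runners (median 0.0263%) and 0.00393% to 0.0517% in cage libraries (median 0.00764%), with 8 of 8 positive and a median log2 fold change of 1.10 (2.10 in cKO, 0.07 in WT). Of 12 tenocyte markers 10 were negative (median log2 fold change -0.29). Their share of counts was 0.720% to 2.72% in runners and 0.467% to 2.37% in cage libraries, a range that was not lower in runners. No gene of these marker lists was called, and the part of Schwann cells and tenocytes in the result was not tested. With the macrophage score as a covariate the fold change of Rb1cc1 was -0.31 (adjusted p = 0.102), with the mitochondrial rRNA share -0.31 (adjusted p = 0.179) and with eGFP carriage -0.38 (adjusted p = 0.266), and the call was lost in each. Over all tested genes, these fits called 105, 61 and 11 with running, in that order, against 273 without a covariate. With the muscle score 549 genes were called, the fold change of Rb1cc1 was -0.34 (adjusted p = 0.00827), and its call held. It also held without WT running female 2 and male 3 (adjusted p = 0.0352) and without WT running male 2 and cKO cage female 3 together (adjusted p = 0.0461). It was lost without cKO cage male 2 alone (-0.37, adjusted p = 0.0502) or without WT running male 2 alone (-0.39, adjusted p = 0.0524). These fits called 144 and 127 of all tested genes with running. The call held without any 1 of the other 23 libraries. It was also lost without the sex term (adjusted p = 0.0522) and without the 2 libraries whose names carry the less common project prefix (adjusted p = 0.0506).

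Per length, the lower level of Rb1cc1 was smaller. Its medians were 31.4 FPKM in cKO runners and 31.5 FPKM in cKO cage libraries, and 27.8 FPKM in WT runners and 32.2 FPKM in WT cage libraries. On the log2(FPKM + 1) scale its fold change was -0.20 (limma adjusted p = 0.405), or -0.31 relative to the median of all genes, which that scale moves by 0.11. An antisense gene, 4732440D04Rik, overlaps its exons, and the strand of the libraries is not stated. That gene stood at 4.82 to 9.49 CPM in runners and 5.92 to 10.1 CPM in cage libraries (log2 fold change -0.10, adjusted p = 0.730). Of the 50-base stretches of the longest Rb1cc1 transcript, 8.48% also occur in other genes, chiefly in the processed pseudogene Gm13961, which had at most 0.602 CPM.

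**Figure D2:**
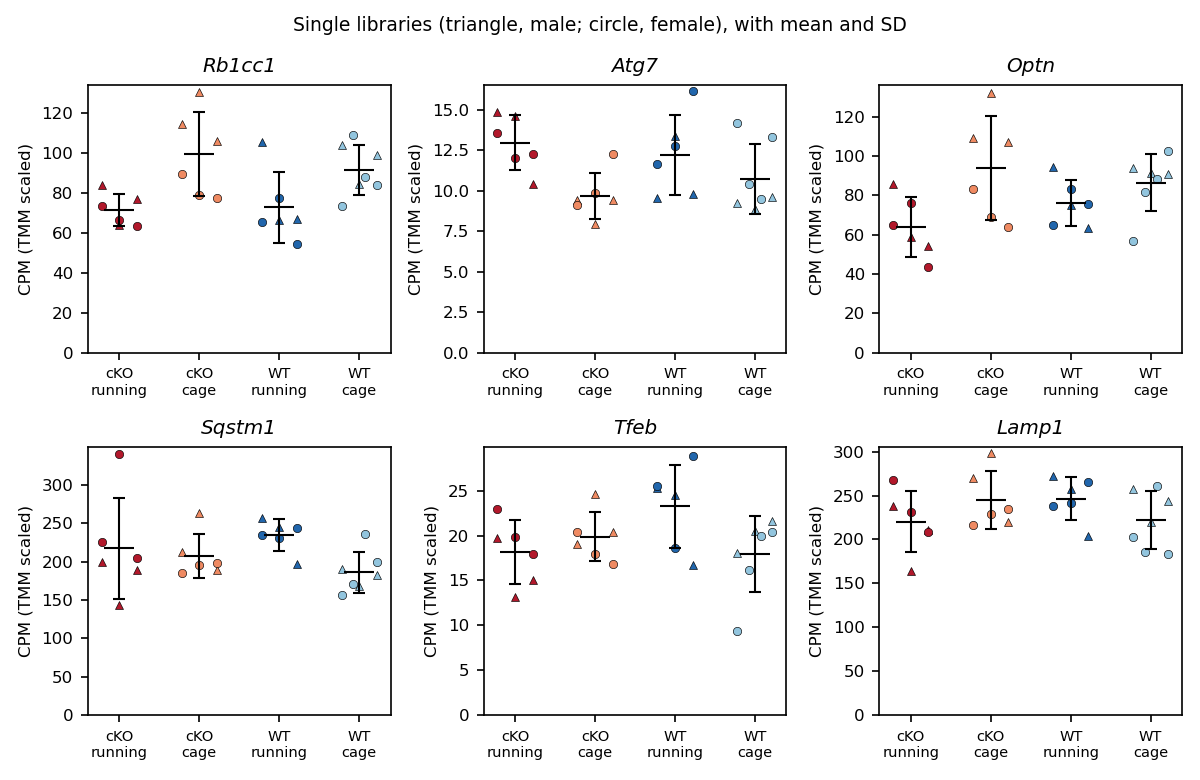
Level in every library (CPM, linear axes from 0) of Rb1cc1, Atg7, Optn, Sqstm1, Tfeb and Lamp1 in cKO runners, cKO cage, WT runners and WT cage libraries, with triangles for males, circles for females and bars for the mean and SD. For Rb1cc1, 11 of 12 runners lie below the cage median, and for Lamp1 the ranges of the groups overlap.

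The catalytic subunits of the same complex were not called with running. Ulk1, the kinase that AMPK phosphorylates, had 30.3, 38.0 and 53.2 CPM in cKO runners, against 37.4, 40.0 and 49.4 CPM in cKO cage libraries. In WT runners it had 36.7, 41.3 and 52.2 CPM, against 23.8, 42.4 and 45.4 CPM in WT cage libraries. All 4 groups overlapped, and the fold change as the mean of both genotypes was -0.00 (95% interval -0.20 to 0.20, adjusted p = 0.999). Ulk2, its close relative, had 50.1, 57.1 and 66.6 CPM in cKO runners, against 55.6, 76.2 and 86.3 CPM in cKO cage libraries. WT runners had 56.9, 67.2 and 96.0 CPM, against 51.1, 77.1 and 83.5 CPM in WT cage libraries. The cKO runners stood lower than most cKO cage libraries (log2 fold change -0.33 ± 0.13, adjusted p = 0.286), and the WT groups overlapped throughout.

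In the conjugation system, Atg7 encodes the E1-like enzyme that activates ATG8 proteins and ATG12. It had 10.4, 12.9 and 14.9 CPM in cKO runners, against 7.95, 9.42 and 12.3 CPM in cKO cage libraries, and 9.53, 12.2 and 16.2 CPM in WT runners, against 8.86, 9.60 and 14.2 CPM in WT cage libraries. Each of the 12 runners lay above the cage median, and 7 of 13 cage libraries lay below the lowest runner. Its fold change of 0.32 ± 0.09 missed the threshold in edgeR (adjusted p = 0.0975) and passed in DESeq2 (adjusted p = 0.0399) and limma-voom (adjusted p = 0.0304). Without WT cage female 1 it passed in edgeR too (0.35, adjusted p = 0.0394).

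Atg10, the E2-like enzyme of ATG12, was the only member whose levels in CPM did not overlap between groups in any of the comparisons of genotype or running. It had 1.81, 3.88 and 4.19 CPM in cKO runners, against 4.36, 4.62 and 5.48 CPM in cKO cage libraries. Every cKO runner lay below every cKO cage library, and 0.887% of all tested genes separated these groups in either direction. Per length the same libraries overlapped, with 2.06 to 3.51 FPKM in cKO runners and 2.36 to 5.08 FPKM in cKO cage libraries. No member was separated by genotype in runners (0.376% of all genes were) or at cage activity (0.047%), or by running in WT (0.543%) or in both genotypes together (0.0261%). The test did not call it (log2 fold change -0.46 ± 0.21, adjusted p = 0.337), and its counts were only 71 to 117 in those runners and 85 to 166 in those cage libraries. In WT runners it had 3.87, 4.99 and 5.56 CPM, against 2.46, 4.13 and 6.76 CPM in WT cage libraries, and these overlapped.

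Among the cargo receptors, Optn, which links ubiquitinated cargo to LC3, had 43.6, 62.0 and 85.9 CPM in cKO runners, against 63.9, 95.3 and 131.9 CPM in cKO cage libraries. WT runners had 63.2, 75.4 and 94.3 CPM, against 57.0, 91.0 and 102.6 CPM in WT cage libraries. Of 12 runners 11 lay below the cage median, and edgeR did not call the difference (-0.36 ± 0.11 as the mean, adjusted p = 0.113, and -0.53 ± 0.16 in cKO, adjusted p = 0.204). Limma-voom called it (mean -0.41, adjusted p = 0.0145), as did edgeR without WT cage female 1 (-0.40, adjusted p = 0.0410). Sqstm1 (p62) had 143.7, 202.1 and 339.8 CPM in cKO runners, against 185.1, 196.7 and 262.8 CPM in cKO cage libraries. In WT runners it had 197.3, 238.9 and 257.1 CPM, against 156.3, 182.6 and 236.2 CPM in WT cage libraries. The WT runners stood higher than most WT cage libraries (0.34 ± 0.14, adjusted p = 0.428), and the cKO groups overlapped throughout.

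Of the ATG8 genes, Gabarap had 42.2, 53.9 and 64.6 CPM in cKO runners, against 44.6, 52.1 and 61.8 CPM in cKO cage libraries. WT runners had 53.0, 61.9 and 67.9 CPM, against 40.8, 50.3 and 61.1 CPM in WT cage libraries. The cKO groups overlapped throughout, and the WT difference of 0.27 ± 0.10 was not called (adjusted p = 0.331). Map1lc3b, whose lipidated protein marks the autophagosome, had 66.3, 76.6 and 88.5 CPM in cKO runners, against 80.5, 89.2 and 106.7 CPM in cKO cage libraries. In WT runners it had 76.3, 90.6 and 105.2 CPM, against 69.3, 86.6 and 100.8 CPM in WT cage libraries. As the mean of both genotypes its fold change was -0.09 (95% interval -0.25 to 0.07, adjusted p = 0.628).

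Lamp1 had 164.5, 221.1 and 267.8 CPM in cKO runners, against 216.2, 232.2 and 298.9 CPM in cKO cage libraries. In WT runners it had 204.1, 249.5 and 272.0 CPM, against 183.1, 219.3 and 260.9 CPM in WT cage libraries. All groups overlapped, and the median was lower in runners than in cage libraries in cKO and higher in WT. As the mean of both genotypes the fold change of Lamp1 with running was 0.00 (95% interval -0.18 to 0.18, adjusted p = 0.999). Tfeb had 13.2, 18.8 and 23.0 CPM in cKO runners, against 16.9, 19.7 and 24.7 CPM in cKO cage libraries. In WT runners it had 16.7, 24.9 and 28.9 CPM, against 9.32, 19.996 and 21.6 CPM in WT cage libraries. With running its fold change was -0.13 ± 0.17 in cKO (adjusted p = 0.775) and 0.37 ± 0.17 in WT (adjusted p = 0.455), neither of them called.

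**Figure D3:**
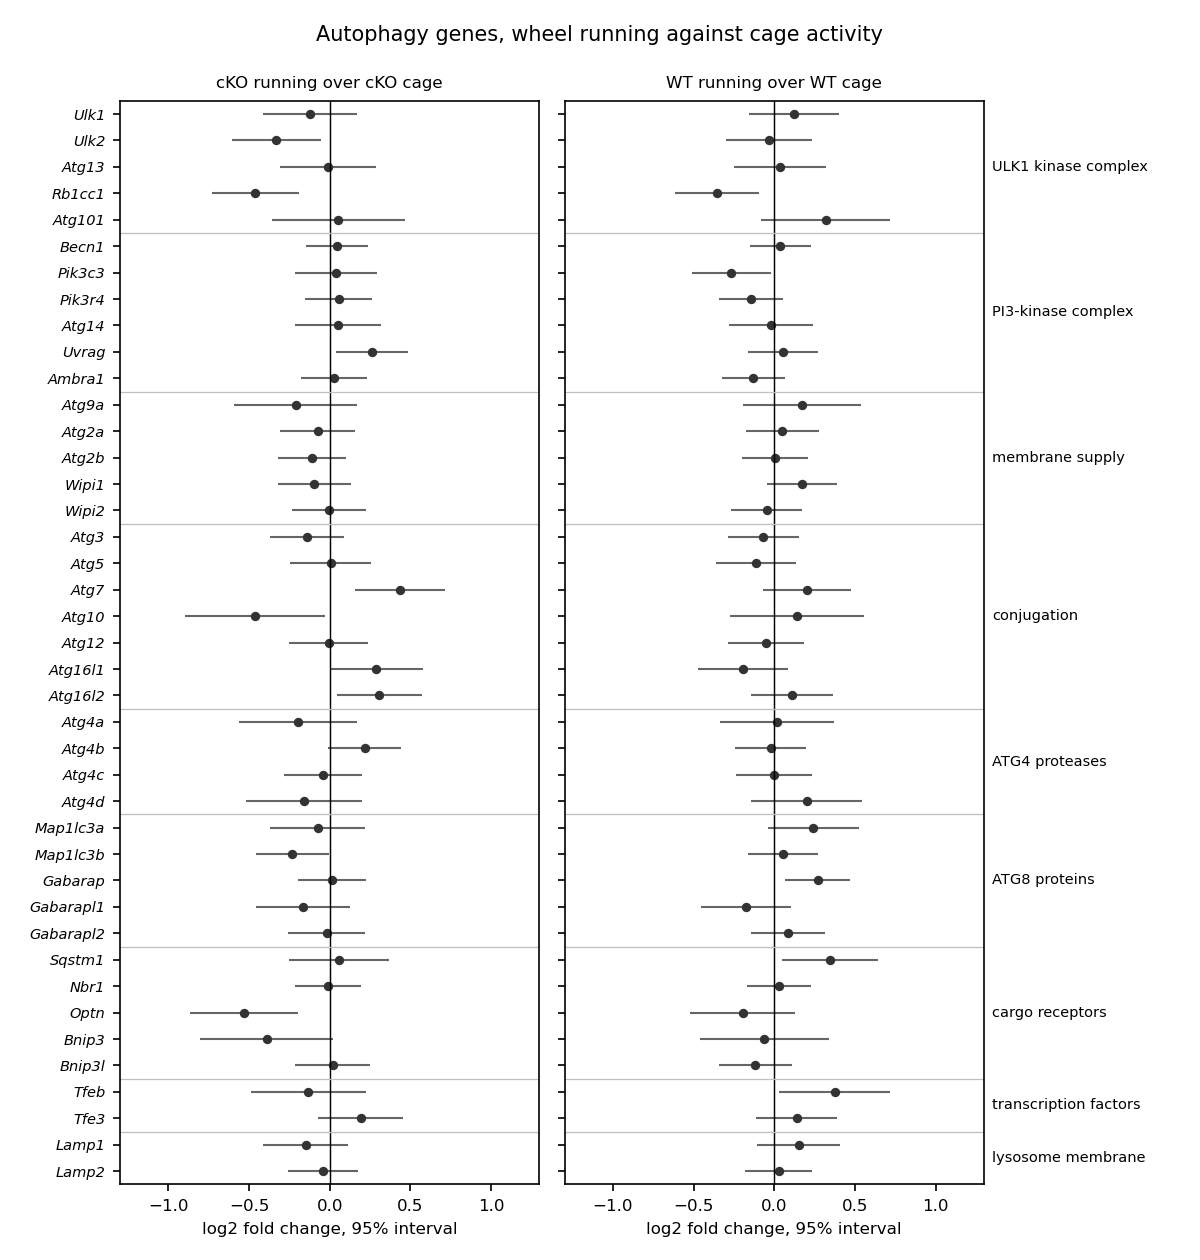
Log2 fold change of runners over cage libraries with its 95% interval for each of the 41 genes, in cKO (left) and in WT (right), from edgeR. Rb1cc1 lies left of 0 with its whole interval in both panels, at -0.46 in cKO and -0.36 in WT, and the other intervals lie near 0 or cross it in at least 1 panel.

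Between libraries labelled cKO and WT, none of the 41 genes passed the test. In runners edgeR called 0 of 41, 6 members had an unadjusted p under 0.05, and the background was 0% called and 11.3% under that p. At cage activity it called 0 of 41 with 0 members under that p, and the background was 0% and 1.13%. For the mean of both activities it called 0 of 41 with 1 member under that p, against 0.00522% and 3.78% of all genes. DESeq2 and limma-voom also called 0 of 41 in each of these. The median log2 fold change of the members was -0.05 in runners, 0.05 at cage activity and -0.01 for the mean, beside 0.01, 0.00 and 0.00 over all genes.

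The intervals bound how large a change of genotype these libraries leave room for. At cage activity the 95% intervals of all 41 members lay within 1 unit of the log2 scale, from -0.42 at the lowest end (Atg13, an adaptor in the ULK1 complex) to 0.65 at the highest (Atg101, its partner). In runners the ends were -0.92 (Atg10) and 0.66 (Atg16l1). The 3 members with the smallest p at cage activity were Atg5 (0.14 ± 0.12), Atg101 (0.25 ± 0.20) and Sqstm1 (0.17 ± 0.15), each with an adjusted p of 1. For the mean of both activities they were Atg5, which is joined to ATG12 (0.20 ± 0.09), Ulk2 (-0.16 ± 0.09) and Atg13 (-0.16 ± 0.10), each with an adjusted p of 0.981.

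In runners the smallest p belonged to Atg16l1, which carries the ATG12-ATG5 conjugate to the membrane. It had 25.2, 31.5 and 50.7 CPM in cKO runners, against 22.3, 27.4 and 29.4 CPM in WT runners, and the groups overlapped (log2 fold change 0.37 ± 0.14, adjusted p = 0.392). At cage activity it had 22.9, 28.1 and 30.9 CPM in cKO, against 24.99, 29.2 and 41.6 CPM in WT. Atg10 and Ulk2 were next, with lower levels in cKO runners than in WT runners (-0.49 ± 0.21 and -0.31 ± 0.13, adjusted p = 0.420 for each). With the muscle score as a covariate the fold changes in runners were 0.25 for Atg16l1, -0.35 for Atg10 and -0.13 for Ulk2. The muscle share was lower in cKO runners than in WT runners, as given above, and eGFP was carried by 6 of 6 cKO and 1 of 6 WT runners, so that carriage and genotype can hardly be told apart there.

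By role, the members pointed different ways in runners. All 5 genes of the ULK1 complex had a negative fold change of cKO against WT (median -0.17), as did 4 of 5 ATG8 genes (median -0.18), 4 of 5 cargo receptors (median -0.12) and 4 of 5 membrane supply genes (median -0.14). Of the 6 lipid kinase complex genes 5 were positive (median 0.13), as were 5 of 7 conjugation genes (median 0.10). At cage activity these medians lay between -0.05 and 0.08. No member of any role was called, and the roles are described by count alone. Cell type markers also differed in sign between cKO and WT runners. All 30 muscle markers were negative (median -0.72), while 8 of 8 Schwann cell (1.58), 8 of 8 adipocyte (0.36), 8 of 8 endothelial (0.28) and 15 of 18 macrophage markers (0.20) were positive, none of them called. With the muscle score as a covariate, 23 of the 41 members were positive and 18 negative in runners (median 0.02), against 16 and 25 without it (median -0.05). The part of these cell types in the pattern by role was not tested.

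**Figure D4:**
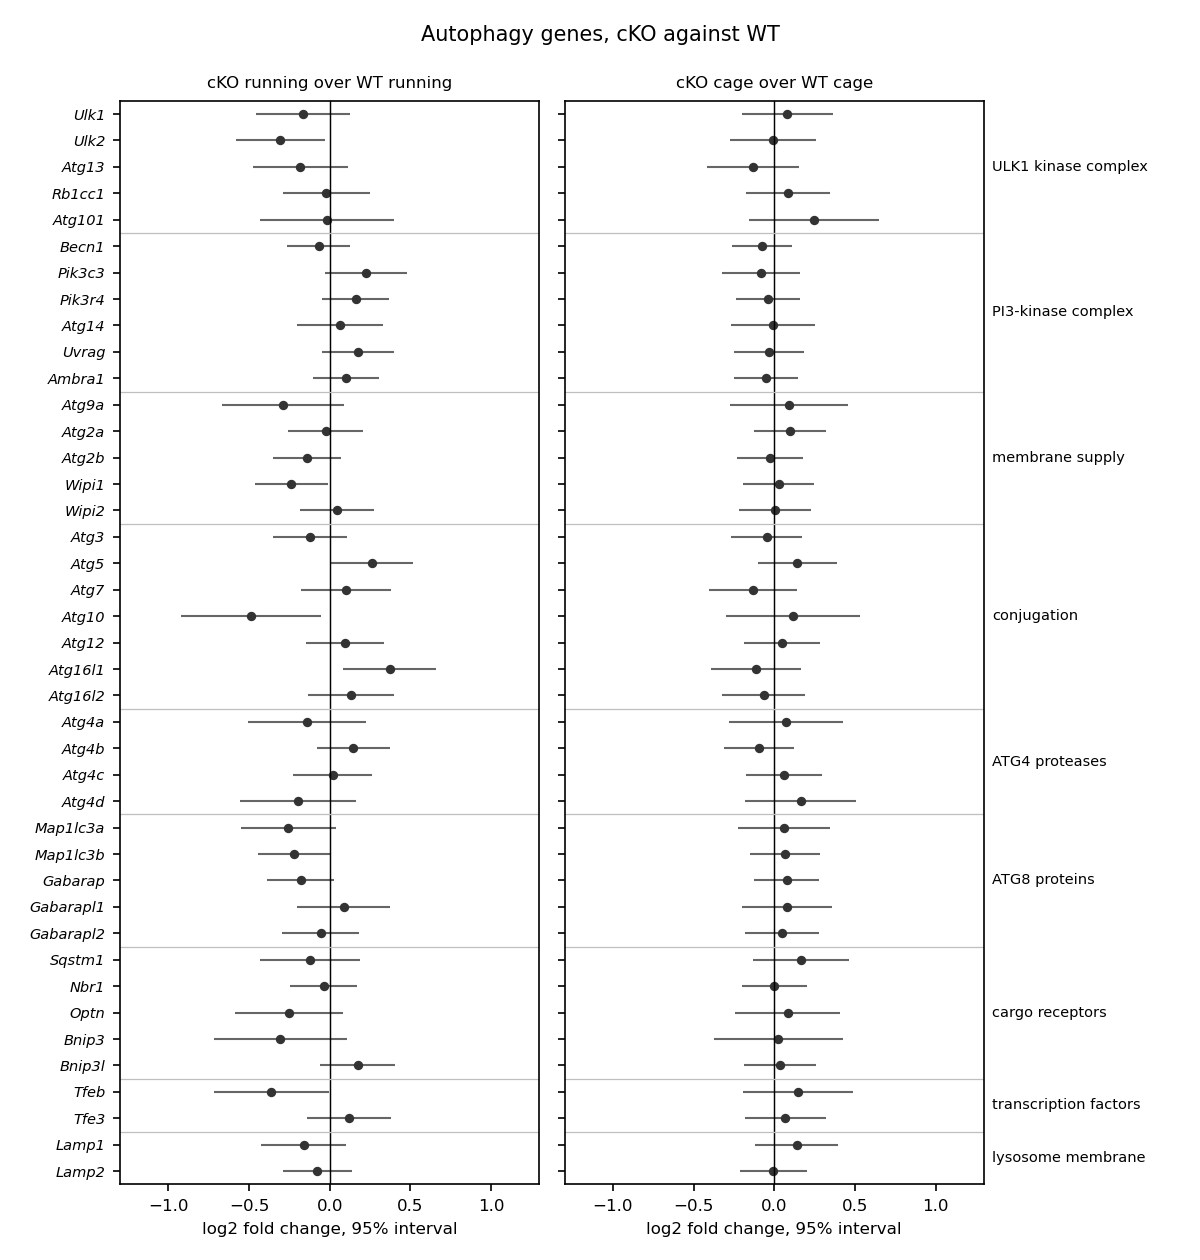
Log2 fold change of cKO over WT with its 95% interval for each of the 41 genes, in runners (left) and at cage activity (right), from edgeR. No gene was called, and the points of runners scatter more widely (-0.49 for Atg10 to 0.37 for Atg16l1) than those at cage activity (-0.13 for Atg13 to 0.25 for Atg101).

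The interaction asks whether running changed a gene differently in cKO and in WT. edgeR called 0 of 41, against 0% of all genes, with 3 members under an unadjusted p of 0.05 against 7.19% of all genes, and DESeq2 and limma-voom called 0 of 41. The smallest p belonged to Atg16l1 (0.48), Tfeb (-0.51) and Atg10 (-0.60), each with an adjusted p of 0.672. For Tfeb, the direction flipped on the log2(FPKM + 1) scale (0.02), where it was -0.13 relative to the median of all genes. Intervals were wide here, and those of 39 of 41 members lay within 1 unit of the log2 scale around 0.

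Between the sexes no member was called either. edgeR called 0 of 41 in males against females, beside 0.616% of all genes (0.318% higher, 0.298% lower), and 5 members had an unadjusted p under 0.05, beside 10.1% of all genes. DESeq2 and limma-voom called 0 of 41. Gabarap had a log2 fold change of -0.21 ± 0.07 (adjusted p = 0.247), with 42.2 to 62.2 CPM in male runners and 44.6 to 53.7 CPM in male cage libraries, against 56.1 to 67.9 CPM in female runners and 40.8 to 61.8 CPM in female cage libraries. Rb1cc1 had 0.26 ± 0.09 (adjusted p = 0.295) and the ATG8 protease gene Atg4a 0.28 ± 0.12 (adjusted p = 0.418). The difference of Rb1cc1 with running was -0.45 in males (adjusted p = 0.147) and -0.34 in females (adjusted p = 0.432), and it was called in neither sex alone.

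Muscle RNA in the libraries moved with many autophagy genes, a relation examined after the data were seen. Each gene was fitted with the muscle marker score, the mean log2 CPM of 30 skeletal muscle fibre genes, beside group and sex. The coefficient was positive and called for 16 of 41 members, negative and called for 2 and not called for 23, and over all tested genes 17.3% were called positive and 14.3% negative. Atg9a, whose protein brings membrane in vesicles, had 0.43 ± 0.04 log2 units per unit of score (adjusted p = 3.89e-08), and the score spanned 3.39 units over the libraries. Ulk1 had 0.27 ± 0.05, Ulk2 0.26 ± 0.04, Sqstm1 0.27 ± 0.05, Tfeb 0.33 ± 0.07 and Bnip3 0.34 ± 0.07, and Rb1cc1 had 0.19 ± 0.05. The others called positive were Optn, Atg13, Atg4a, Atg4d, Wipi1, Nbr1, Lamp1, Map1lc3b and Atg10.

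The counts of Atg9a and Atg4a carry a limit, because 42.3% and 63.6% of the 50-base stretches of their longest transcripts also occur in other annotated genes. The negative ones were Uvrag (-0.12 ± 0.05, adjusted p = 0.0444) and Atg16l1 (-0.16 ± 0.06, adjusted p = 0.0444), and both stayed called without 5 of the 25 libraries in turn, with 0 or 1 called without any of the other 20. By role, 4 of 5 genes of the ULK1 complex and 4 of 5 cargo receptors were positive, against 0 of 6 of the lipid kinase complex. On the log2(FPKM + 1) scale 0 members were called positive and 23 negative, where the median over all genes was -0.19. The 16 stayed above the median of all genes in that fit and in every other fit tried. With the score in the model, edgeR called 2 of 41 members with running, Rb1cc1 (-0.34, adjusted p = 0.00827) and Sqstm1 (0.29, adjusted p = 0.0188). That fit called 549 of all tested genes with running, against 273 without the score. With genotype it called 0 of 41 members at either activity.

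**Figure D5:**
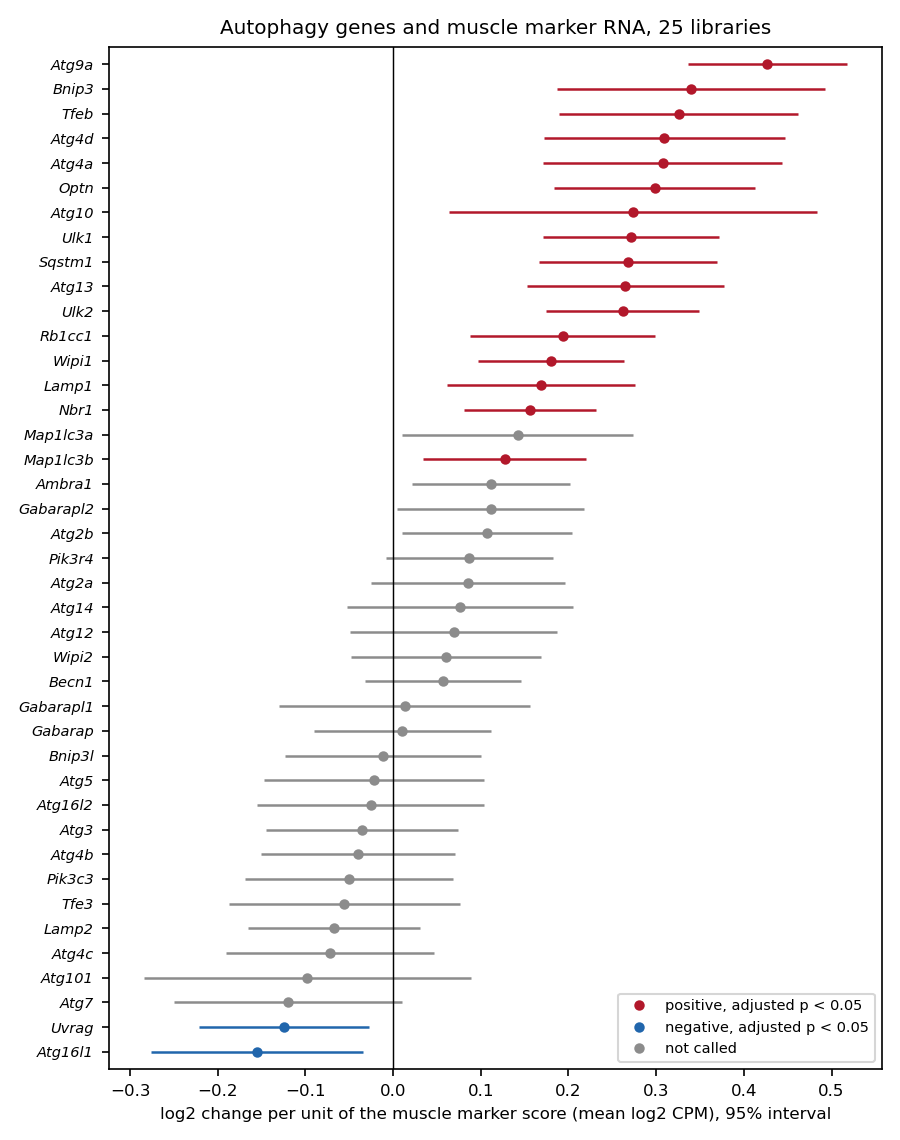
Coefficient of the muscle marker score for each of the 41 genes (log2 change per unit of score, 95% interval), from edgeR with group and sex in the model over 25 libraries. Red marks the 16 genes called positive, from Atg9a at 0.43 downward, blue marks Uvrag and Atg16l1, called negative, and grey marks the 23 not called.

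Other genes of the pathway, listed by role, were called in few cases. With running as the mean of both genotypes, 0 of 39 further autophagy genes and 0 of 16 vacuolar ATPase subunits, which acidify the lysosome, were called. Their medians were 0.02 and 0.06. Of all tested genes 1.43% were called in this comparison (0.611% higher, 0.814% lower), and 52.2% were positive. Of 35 lysosomal enzymes and transporters, 29 were positive (median 0.14) and 1 rose, Lgmn, an endopeptidase of the lysosome that macrophages also express (0.38 ± 0.10, adjusted p = 0.0459). It had 53.1, 66.6 and 91.4 CPM in runners, against 33.5, 49.9 and 66.0 CPM in cage libraries, and the groups overlapped. Its call was narrow: it held in 6 of 20 other settings. It was lost with the macrophage score as a covariate (0.24, adjusted p = 0.205), where 105 of all genes were called. Of the 25 libraries left out in turn, the call held without cKO running male 1, cKO cage male 1, WT running female 3, WT running male 1, WT cage female 1, WT cage male 1 or WT cage male 3, and was lost without any 1 of the other 18 (adjusted p up to 0.0970). In males against females, 27 of these 35 were negative (median -0.12, none called), where 49.4% of all tested genes were positive and 0.616% were called. Macrophage markers were negative in 18 of 18 (median -0.26) and Schwann cell markers in 8 of 8 (median -1.31), and the part of these cells in the difference was not tested.

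Of 18 transcriptional regulators of autophagy, 0 rose and 2 fell with running, beside 0.611% of all tested genes called higher and 0.814% called lower. Fnip1 encodes a partner of folliculin that binds AMPK and helps keep TFEB and TFE3 out of the nucleus. It had 40.0, 51.8 and 55.3 CPM in cKO runners, against 56.1, 72.9 and 92.9 CPM in cKO cage libraries, and 35.6, 50.3 and 58.6 CPM in WT runners, against 49.3, 69.4 and 81.0 CPM in WT cage libraries. In cKO every runner lay below every cage library, a separation that 0.887% of all tested genes showed in either direction, and in WT the groups overlapped. Fnip1 fell with running (log2 fold change -0.52 ± 0.10, adjusted p = 0.00789), with -0.56 ± 0.15 in cKO and -0.48 ± 0.14 in WT. The call held without any 1 of the 25 libraries and with the muscle score as a covariate (-0.42, adjusted p = 0.00158). It was lost with the macrophage score (-0.40, adjusted p = 0.0535), with the mitochondrial rRNA share (-0.45, adjusted p = 0.0723), with eGFP carriage (-0.50, adjusted p = 0.153), in each sex alone and on both log2 FPKM scales. The covariate fits that lost the Fnip1 call also called fewer genes in all, as given with Rb1cc1. The other regulator that fell was Ppargc1a, a coactivator of mitochondrial genes (-0.95 ± 0.19, adjusted p = 0.00988). Its call held without any 1 of the 25 libraries. It was lost with eGFP carriage as a covariate (-0.91, adjusted p = 0.146), in females only (-0.87, adjusted p = 0.377) and on the log2 FPKM scales with 1 added (-0.61, limma adjusted p = 0.194) or 0.1 added (-0.68, limma adjusted p = 0.185). Between the genotypes 0 of these 18 were called at either activity, and Foxo3, a transcription factor of autophagy genes, was lower in males than in females (-0.38 ± 0.06, adjusted p = 0.000886). That call held without any 1 of the 25 libraries and was lost on the log2 FPKM scales with 1 added (-0.49, limma adjusted p = 0.396) or 0.1 added (-0.53, limma adjusted p = 0.384).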

How the data were processed

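RNA counts of the 41 autophagy genes were compared across 25 mouse Achilles tendon libraries. Per the labels' protocols, tissue was pulverised in TRIzol, RNA was taken over a spin column with DNase, and libraries were made with an UltraExpress kit. The tools named in the submitters' processing notes are STAR 2.7.8a, RSEM 1.3.3, FastQC 0.11.8 and cutadapt 2.3, with the build GRCm38 (mm10), and roles, strand and annotation release are not stated. The authors deposited expected counts, which were whole numbers in 100% of cells, and FPKM values. FPKM served for levels between genes and for alternatives.

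Counts were fitted in edgeR 4.0.16 (R 4.3.3) over all 25 libraries with 4 group means and a sex term, TMM scaling and filterByExpr, which kept 19155 of 55487 genes. The 4 reporter entries (Cre, eGFP, mCherry, tdTomato) were left out. Quasi-likelihood p-values were two-sided and adjusted by Benjamini-Hochberg over all tested genes in each comparison, and a gene was called under 0.05. Each SE belongs to a log2 fold change. CPM are TMM-scaled except for reporters. Counting limits which totals set cover counting error only.

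The members and lists were chosen with earlier results of these data known. Statistics are given for members called and, per comparison, the 3 with the smallest p, and group levels for members called and for Ulk1, Map1lc3b, Sqstm1, Tfeb and Lamp1. Group levels of Atg7, Optn, Atg10, Atg16l1, Ulk2 and Gabarap, interval ends and the muscle coefficients were added after values were seen. Gene positions come from GENCODE vM21 and promoters from RefSeq (both GRCm38). Alternatives used DESeq2 1.42.0, limma 3.58.1 on voom values with quality weights or on log2 FPKM with 1 or 0.1 added, other scaling and filters, covariates, subsets and each library left out. The model was tested on simulated counts first.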

Additional observations from a re-analysis of the deposited data

Results flagged for a closer look

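Group levels of 12 autophagy genes were searched for libraries far from the rest of their group, in 48 groups, and 5 stood out. Chance gives about 1 in 20 groups if the groups are independent. Here the genes share libraries, and some were added after values were seen, so the 5 cannot be read as an excess. WT cage female 1 gave 3 of the 5. In that library Ulk1 was at 23.8 CPM (the other WT cage libraries 40.5 to 45.4), Ulk2 at 51.1 CPM (others 70.4 to 83.5) and Atg16l1 at 41.6 CPM (others 24.99 to 29.2). Its muscle marker score was 8.95, the lowest of the WT libraries. In cKO running male 2, whose score of 8.47 was the lowest of all, Atg16l1 was at 50.7 CPM (the other cKO runners 25.2 to 33.2). In cKO cage male 2, whose score of 11.58 was the highest of the cKO libraries, Sqstm1 was at 263 CPM (the other cKO cage libraries 185 to 213). The part of muscle RNA in these single values was not tested.

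The library labelled WT running male 2 had eGFP at 119 CPM, where the other WT libraries had at most 0.0219 CPM. Without it the call of Rb1cc1 with running was lost (-0.39, adjusted p = 0.0524), where 127 of all genes were called. Then 0 in place of 2 autophagy genes had a called negative muscle coefficient. The counts of autophagy genes called for genotype, interaction and sex were 0, as with that library.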

How the results depend on the processing

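Of 922 values from 22 other settings, 832 were rated the same, as were 1105 of 1150 values from leaving out 1 of the 25 libraries. For a single gene, the same meant an unchanged direction and side of the threshold. A count was rated the same if it was equal or close. A median was rated the same if it shifted by less than the spread between libraries (SD 0.12), even where its sign changed. The count of autophagy genes called with running as the mean of both genotypes (1 in edgeR) was 2 with no filter on low counts, with the muscle score or with that score and the mitochondrial rRNA share as covariates, and in DESeq2, and 3 in limma-voom. It was 0 with the macrophage score, the mitochondrial rRNA share or eGFP carriage as a covariate, with no sex term, without the 2 libraries of the less common project prefix, in females only, in males only and on both log2 FPKM scales. In cKO alone it was 1 in DESeq2 and 2 in limma-voom, against 0 in edgeR. Leaving out single libraries gave 0 to 3, with 0 without cKO cage male 2 or WT running male 2 and 3 without WT cage female 1. In males against females 1 gene, Gabarap (-0.27, adjusted p = 0.0418), was called with the muscle score and mitochondrial rRNA share together, against 0 otherwise. That fit called 218 of all genes by sex, against 118 in the main one.

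The 16 positive muscle coefficients became 9 in males only, 5 in females only and 0 on both log2 FPKM scales, and were 14 to 17 with single libraries left out. The 2 negative ones became 0 with no filter, no sex term or a replicate block, without the libraries with eGFP, in females only, in males only and in limma-voom. They became 1 without WT running female 2 and male 3, without WT running male 2 and cKO cage female 3, and in DESeq2, became 23 on both log2 FPKM scales, and were 0 to 2 with single libraries left out. Over all genes, 3316 coefficients were called positive and 2733 negative in the main fit. Positive ones were 2135 in males only and 1170 in females only. Negative ones were 9527 with 1 added to FPKM and 9157 with 0.1 added. On the log2 FPKM scales the median muscle coefficient of all genes was -0.19 with 1 added and -0.28 with 0.1 added, against -0.03 in the main fit. These scales also move the median of all genes with running by 0.11 or 0.15. Subsets hold fewer libraries. The cause of the changed counts was not tested in any setting. The median fold changes of the 41 genes lay near 0 and changed sign in several settings, among them the muscle covariate for genotype in runners (0.02, against -0.05 without it). Changes larger than the spread between libraries (SD 0.12) were as follows. For genotype at cage activity the median was -0.08 in females only, against 0.05 in all. For genotype in runners it was 0.07 with 0.1 added to FPKM. For running it was 0.20 in cKO and 0.18 as the mean with 1 added, and 0.23 and 0.19 with 0.1 added. For the interaction it was -0.23 in males only, 0.05 in females only, 0.12 with 1 added and 0.13 with 0.1 added, against -0.07 in all. Directions also turned for Atg101 at cage activity in females only (-0.10) and for Tfeb in the interaction with 1 added to FPKM (0.0198) or 0.1 (0.0192).

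Replicate numbers name libraries only: the deviations of 34 pairs with the same number correlated at -0.20 to 0.21, 4 of them over 0.1, and 4 of 25 libraries were closest to their own number. With a replicate block the count with running was 1, with Rb1cc1 at -0.43 (adjusted p = 0.0212). Depth limits Atg10 most, with as few as 51 counts in a library.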
